A study of Mus musculus with 100 samples.

Results

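H19 and Igf2 form an imprinted pair on distal mouse chromosome 7, and their levels and allelic balance were followed through reprogramming of hybrid fibroblasts to induced pluripotent stem cells (iPSCs). The members were named by symbol as 2 of the 25965 genes in the deposited table. The rule that names them uses no measured value, but earlier results of these data were known when they were chosen. The 18 RNA-seq libraries fell into 6 groups of 3 replicates. Female mouse embryonic fibroblasts (MEFs) came from a midgestation F1 embryo of an i4F-BL6 mother and a CAST father. The mother carries a doxycycline-inducible cassette of Oct4, Sox2, Klf4 and c-Myc with rtTA in Rosa26. KSR-iPSCs are represented by F KSR2 and F KSR4 (female) and by M KSR3 and M KSR5 (male), each grown from 1 picked clone of MEFs of such an embryo, plated on feeder cells in serum-free medium with LIF after doxycycline withdrawal. TX 2i ESCs are a female BL6 × CAST embryonic stem cell line, TX1072, and they come from another embryo than the iPSCs. They were grown in medium with serum, LIF and 2i (inhibitors of MEK and GSK3). All groups carry a maternal BL6 and a paternal CAST genome, so that the parent of origin and the strain of an allele cannot be told apart here. No male MEF library was analysed here. Per the study's methods, the female MEFs came from 1 embryo, and the KSR-iPSCs from 1 embryo of each sex. The labels and methods call the 3 libraries of a group biological triplicates without saying whether they are separate cultures, and p-values measure the spread between them. Each line is 1 clone, and a difference between lines cannot be told apart from one between clones.

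In most mouse tissues of the embryo, H19 is transcribed from the maternal chromosome and Igf2 from the paternal one. H19 is a spliced, polyadenylated long non-coding RNA and the precursor of miR-675. Igf2 encodes an insulin-like growth factor that drives fetal growth. Both genes share enhancers that lie beyond H19, and a control region between the genes carries DNA methylation only on the paternal chromosome. On the unmethylated maternal copy, CTCF binds this region as an insulator and keeps the enhancers from Igf2, whereas methylation of the paternal copy blocks CTCF and silences the H19 promoter. Loss of the mark, or its presence on both copies, is a known form of imprinting failure in cultured pluripotent cells.

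In the GENCODE annotation of GRCm38, the build of the deposited values, H19 (ENSMUSG00000000031) lies at chr7:142575529-142578143 on the minus strand and is annotated as a long intergenic non-coding RNA with 5 exons in its longest transcript. Igf2 (ENSMUSG00000048583) lies at chr7:142650766-142666816, also on the minus strand, with 4 exons in its longest transcript, and 72.6 kb separate the genes. The 6000 bases upstream of H19, where the control region is known to lie, were searched on both strands for the core of the CTCF motif, written here as CCGC, 2 bases of any kind, GG, 1 base of any kind and GGCAG. The 4 matches are shown because binding of CTCF in this region is the known switch between the genes, and each holds a CpG inside the core. All 4 lay on the minus strand, between 2166 and 3891 bases upstream of H19, in the region between the 2 genes and outside their exons. The capitals mark the core.

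Match 1 (chr7:142580301-142580330): agacgatgCCGCGTGGTGGCAGtacaatac
Match 2 (chr7:142580756-142580785): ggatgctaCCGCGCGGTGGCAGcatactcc
Match 3 (chr7:142581782-142581811): cagggttgCCGCACGGCGGCAGtgaagtct
Match 4 (chr7:142582026-142582055): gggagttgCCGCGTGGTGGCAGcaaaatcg

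Matches 1 and 4 shared the same core, so the 4 matches held 3 distinct cores. Among 32851 promoter windows of 300 bases in the RefSeq table of this organism, 40 (0.122%) held the core, and 0 of the 4 Igf2 windows did. A match is a stretch of letters and does not show that CTCF was bound, and the methylation of these copies was not analysed here.

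Both genes also host microRNAs, which are shown because their precursors share the transcripts counted here. The capitals mark the seed, bases 2 to 8, and the mature sequences are those of RefSeq. The precursor of miR-675 lies in exon 1 of H19, with the mature arms at chr7:142577112-142577133 (5p) and chr7:142577078-142577099 (3p), and the precursor of miR-483 lies in an intron of Igf2.

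miR-675-5p: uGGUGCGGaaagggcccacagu
miR-675-3p: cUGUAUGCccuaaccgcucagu
miR-483-5p: aAGACGGGagaagagaagggag
miR-483-3p: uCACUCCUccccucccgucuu

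The 4 mature sequences had 4 different seeds. The libraries were made from polyadenylated RNA and do not measure the mature microRNAs.

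The libraries held 13183036 to 17921280 reads on genes (median 15722711), and 17.7 to 19.9% of them could be given to 1 parental genome. A level is given as deposited, as log2 RPM (reads of a gene for every 1000000 reads of the library), without correction for gene length, and a difference of 1 is a doubling. A maternal share is the percentage of BL6 reads among the BL6 and CAST reads of a gene. Over all of chromosome 7 the maternal share was 50.9 to 54.2% in the 18 libraries. The labelled cell types were checked with markers. The 8 pluripotency markers summed to 1.40 to 2.29 RPM in MEFs, with 5 of the 8 at 0 reads in each library, and to 3674 to 7824 in the 15 pluripotent libraries, with none at 0. The 15 fibroblast markers summed to 30123 to 42459 RPM in MEFs, to 38.3 to 110 in 14 pluripotent libraries with 1 to 7 markers at 0, and to 266 in M KSR5 replicate 3. That library stands apart in the allelic results as well, and values that rest on it are given with and without it.

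H19 was abundant in fibroblasts and low in the pluripotent cells. In MEFs its level was 12.68, 12.57 and 12.62 in replicates 1, 2 and 3 (12.62 ± 0.06, SD, n = 3), or 6305 ± 244 RPM. In F KSR2 it was 5.83, 5.21 and 8.44 (6.49 ± 1.71), and in F KSR4 7.35, 6.60 and 8.71 (7.55 ± 1.07). The third replicate was the highest of both female lines, by more than 1 log2 unit. In M KSR3 the levels were 6.56, 5.81 and 5.80 (6.06 ± 0.44), and M KSR5 stood at 7.63, 7.35 and 8.06 (7.68 ± 0.36). TX 2i ESCs were lowest on average, at 5.03, 4.6 and 5.75 (5.13 ± 0.58). No pluripotent library overlapped with the MEFs, and the highest one, F KSR4 replicate 3, held 6.63% of their mean H19 level. The share of the MEF level ranged from 0.589 to 5.51% for F KSR2, 1.54 to 6.63% for F KSR4, 0.88 to 1.50% for M KSR3, 2.58 to 4.25% for M KSR5 and 0.38 to 0.86% for TX 2i ESCs.

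In RPM, which is not corrected for gene length, Igf2 was somewhat lower than H19 in fibroblasts. It was lower than H19 by a wider margin in the pluripotent cells. In MEFs its level was 12.25, 12.08 and 12.07 (12.13 ± 0.10, n = 3), or 4500 ± 315 RPM, from 79656, 85126 and 81798 reads. In F KSR2 the levels were 1.93, 1.71 and 3.14 (2.26 ± 0.77), and in F KSR4 4.25, 2.07 and 4.93 (3.75 ± 1.49). The 3 libraries of F KSR4 spanned nearly the whole pluripotent range, with 345, 76 and 450 reads. In M KSR3 the levels were 1.39, 2.50 and 1.61 (1.83 ± 0.59), and M KSR5 stood at 4.33, 4.30 and 4.43 (4.35 ± 0.07). TX 2i ESCs held an intermediate level of 3.20, 3.11 and 2.68 (3.0 ± 0.28). M KSR3 held 45, 110 and 55 reads and M KSR5 364, 351 and 372, so that the 2 male lines did not overlap. The pluripotent libraries held 0.0582 to 0.676% of the MEF level, as seen in the plot of levels by library.

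**Figure D1:**
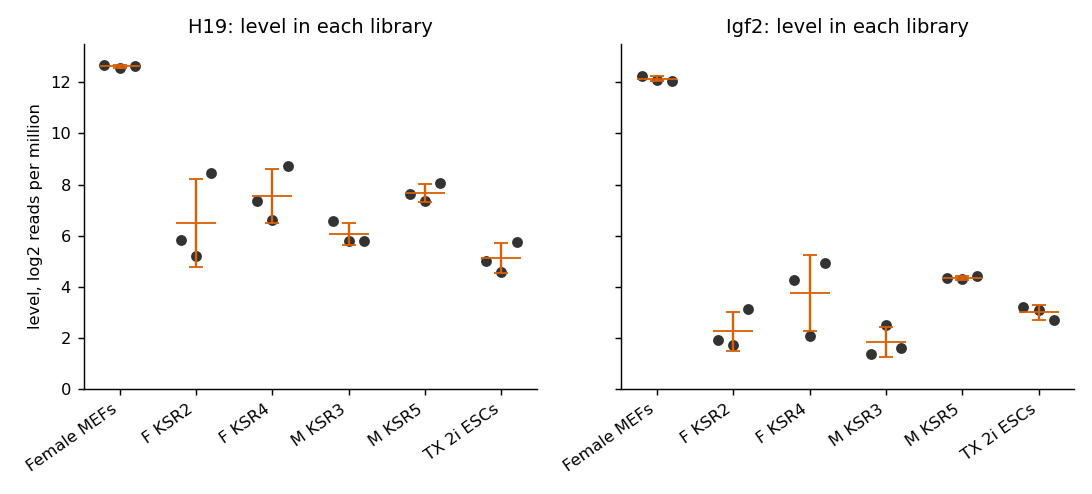
Level of H19 and Igf2 in each of the 18 libraries, on the y axis as deposited log2 RPM, with the 6 groups on the x axis; points are libraries and bars are mean ± SD (n = 3). MEFs average 12.62 for H19 and 12.13 for Igf2, and the highest pluripotent library lies at 8.71 for H19 and at 4.93 for Igf2.

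Both genes were lower than in MEFs in all 5 pluripotent groups (limma on the log2 values, Benjamini-Hochberg adjustment over 14632 genes). For H19 the difference was -6.13 for F KSR2 (adjusted p = 1.36e-07), -5.07 for F KSR4 (1.46e-06), -6.57 for M KSR3 (5.68e-08), -4.94 for M KSR5 (1.88e-06) and -7.49 for TX 2i ESCs (1.03e-08), with an SE of 0.62 each. These are 30.7-fold to 180-fold decreases. For Igf2 the differences were -9.87 (3.86e-11), -8.38 (3.31e-10), -10.30 (2.30e-11), -7.78 (8.70e-10) and -9.14 (1.03e-10) in the same order, with an SE of 0.52, or 220-fold to 1262-fold. Of all genes tested, 29.0, 31.2, 28.2, 28.9 and 29.0% were lower than in MEFs in the 5 groups in that order, and 20.5% were lower in all 5 groups, so that a lower level on its own was a common outcome. In bulk RNA, fewer cells that express a gene and less RNA per cell cannot be told apart. The fibroblast marker sum was also lower in the same libraries, at 0.109 to 0.312% of its MEF value in 14 of them and at 0.757% in M KSR5 replicate 3, and the part of residual fibroblasts or feeder cells in the H19 and Igf2 levels was not tested. In 15 of 15 pluripotent libraries the percentage of the MEF level that remained was higher for H19 than for the marker sum of the same library, by 1.36 to 25.3 times. For Igf2 it was higher than the marker sum in 4 of 15, F KSR4 replicates 1 and 3 and M KSR5 replicates 1 and 2.

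Per kilobase of exon, H19 (2.46 kb) was the more abundant RNA in every library. In MEFs it reached 2563 ± 99.3 RPM per kb against 786 ± 55.1 for Igf2 (5.723 kb), a ratio of 3.13 to 3.41. In the KSR-iPSC lines the ratio per kb was wider, with a median of 34.7 for F KSR2 (26.4 to 91.6), 32.0 for F KSR4 (20.0 to 53.6), 42.4 for M KSR3 (23.1 to 83.8) and 22.9 for M KSR5 (19.2 to 28.9). In TX 2i ESCs it was 6.55, 8.26 and 19.5 from lowest to highest. The ratio did not overlap between MEFs and any pluripotent group.

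Among the pluripotent groups, the order of mean H19 levels was M KSR5 (7.68), F KSR4 (7.55), F KSR2 (6.49), M KSR3 (6.06) and TX 2i ESCs (5.13), and no neighbours in that order passed the test of their difference. Of the 10 pairs of pluripotent groups, 2 passed, both against TX 2i ESCs. F KSR4 was higher by 2.43 ± 0.62 (adjusted p = 0.0132) and M KSR5 by 2.55 ± 0.62 (adjusted p = 0.00759). The first call was lost without F KSR4 replicate 3 (1.85, adjusted p = 0.0601) or TX 2i ESCs replicate 2 (2.16, adjusted p = 0.0577). Without F KSR2 replicate 3, its highest library, F KSR2 passed as lower than F KSR4 (difference -2.03, adjusted p = 0.0423) and M KSR5 (-2.16, adjusted p = 0.0203), and M KSR3 differed from F KSR4 (1.50 higher in F KSR4, adjusted p = 0.0245) and from M KSR5 (-1.62, adjusted p = 0.0356). With the replicate number as a block, F KSR4 minus M KSR3 also passed at 1.50 (adjusted p = 0.0482, against 0.113 without the block).

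The order of mean Igf2 levels was M KSR5 (4.35), F KSR4 (3.75), TX 2i ESCs (3.0), F KSR2 (2.26) and M KSR3 (1.83), and here too no neighbours passed the test. Of 10 pairs, 3 passed. M KSR3 lay below M KSR5 by -2.52 ± 0.52 (adjusted p = 0.0120), F KSR2 below M KSR5 by -2.09 ± 0.52 (adjusted p = 0.0374), and F KSR4 above M KSR3 by 1.92 ± 0.52 (adjusted p = 0.0227). Both genes thus had M KSR5 and F KSR4 as their highest iPSC lines, and 27.7% of all genes tested passed in at least 2 of the 10 pairs. The M KSR3 to M KSR5 call was lost without M KSR3 replicate 3 (-2.41, adjusted p = 0.0617). The F KSR4 to M KSR3 call was lost without F KSR4 replicate 1 or 3 or M KSR3 replicate 1 or 3 (adjusted p = 0.0510 to 0.0893), and the F KSR2 to M KSR5 call was lost without any 1 of 8 libraries (adjusted p = 0.0501 to 0.155), namely F KSR2 replicates 1 and 2, M KSR3 replicate 3, M KSR5 replicates 1, 2 and 3 and TX 2i ESCs replicates 1 and 2. Without F KSR4 replicate 2, its lowest library, F KSR4 was higher than F KSR2 (F KSR2 minus F KSR4 -2.33, adjusted p = 0.00367) and than TX 2i ESCs (1.59, adjusted p = 0.00782), M KSR5 was higher than TX 2i ESCs (1.35, adjusted p = 0.00714) and M KSR3 lower (-1.17, adjusted p = 0.0146). M KSR5 was also higher than TX 2i ESCs without F KSR4 replicate 3 (1.35, adjusted p = 0.0435).

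Set against TX 2i ESCs as a mean of 4 lines, KSR-iPSCs had more H19 by 1.82 ± 0.49 (95% interval 0.79 to 2.84, 3.53-fold, adjusted p = 0.0122) and an Igf2 difference of 0.05 ± 0.41 (95% interval -0.82 to 0.92, adjusted p = 0.955). Of all genes, 11% were higher in KSR-iPSCs than in TX 2i ESCs by this test and 12.0% lower. The H19 call was lost without TX 2i ESCs replicate 1 (1.77, adjusted p = 0.0556) or replicate 2 (1.55, adjusted p = 0.0872). Medium and cell origin differ together between these cells and cannot be told apart. Between 6 female and 6 male KSR-iPSC libraries, the difference was 0.16 ± 0.55 for H19 (95% interval -1.01 to 1.33, adjusted p = 0.909) and -0.09 ± 0.65 for Igf2 (95% interval -1.46 to 1.28, adjusted p = 0.955), and 2.87% of 13609 genes differed in level (390). Each sex is 2 lines, and the 3 libraries of a line entered this fit as replicates. The lines of a sex come from 1 embryo, so that sex and embryo cannot be told apart. With line as a random effect, 138 genes differed, and the SE was 0.62 for H19 and 0.70 for Igf2.

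The reads that cover a strain difference resolved each level into its parental alleles. In MEFs, H19 RNA was maternal, with 18241, 20513 and 21090 maternal reads against 42, 9 and 15 paternal reads. The maternal share was 99.8, 100 and 99.9% (99.9 ± 0.10, n = 3). Igf2 was the mirror image, with 0, 0 and 1 maternal reads against 4896, 5543 and 4622 paternal ones. A count of 0 in replicates 1 and 2 allows a maternal share of up to 0.0613 and 0.0541%, and 1 read was a share of 0.0216% in replicate 3. These intervals and limits, and those that follow, cover counting error only, since reads amplified by PCR are not independent molecules.

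In the pluripotent cells H19 RNA came from both chromosomes. F KSR2 held 102, 71 and 575 maternal against 74, 53 and 391 paternal reads, a share of 58.0, 57.3 and 59.5% (58.2 ± 1.16). F KSR4 held 328, 185 and 763 against 178, 131 and 335, a share of 64.8, 58.5 and 69.5% (64.3 ± 5.49). M KSR3 held 148, 121 and 108 against 117, 68 and 50, a share of 55.8, 64.0 and 68.4% (62.7 ± 6.35). These 9 libraries all lay on the maternal side of an even balance, between 55.8 and 69.5%. TX 2i ESCs held 55, 42 and 77 maternal against 43, 44 and 83 paternal reads, a share of 56.1, 48.8 and 48.1% (51.0 ± 4.43).

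M KSR5 split. Replicates 1 and 2 held 215 and 171 maternal against 387 and 347 paternal H19 reads, so that the paternal allele, the one that is silent in MEFs, was in the majority. Their maternal shares were 35.7% (95% Wilson interval 32.0 to 39.6) and 33.0% (29.1 to 37.2), below every other library. Replicate 3 held 577 maternal and 219 paternal reads, a share of 72.5% (69.3 to 75.5), above every other pluripotent library. The total H19 level differed less, at 7.63, 7.35 and 8.06. The mean of 47.1 ± 22.1% thus describes none of the 3 libraries. Replicate 3 was also the library with the highest fibroblast marker sum, 266 RPM against 43.5 and 49.2 in replicates 1 and 2. Among these markers Col1a1 was at 63.4, Lox at 52.0, Col3a1 at 24.8 and S100a4 at 5.38. Thy1 differed less (10.1 against 4.47 and 8.29). Pdgfrb was lower than in replicates 1 and 2 (1.68 against 2.93 and 2.24), and Lum had 0 reads. The fibroblast marker sum of replicate 3 was 0.757% of the MEF sum, where the H19 level of the library was 4.25% of that of MEFs. The maternal share over the fibroblast markers was 35.4, 38.3 and 51.5% in replicates 1, 2 and 3, while the share over neighbouring Ctsd was 49.4 ± 1.59%. Marker sums of other cell types were also highest in replicate 3 of this line. They were yolk-sac endoderm (180 RPM against 69.7 and 87.7), trophoblast (48.8 against 21.5 and 21.9) and early mesoderm (16.3 against 6.74 and 9.47). The neural sum was not (77.9 against 65.8 and 105). The part of fibroblasts or of other such cells in the split was not tested.

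**Figure D2:**
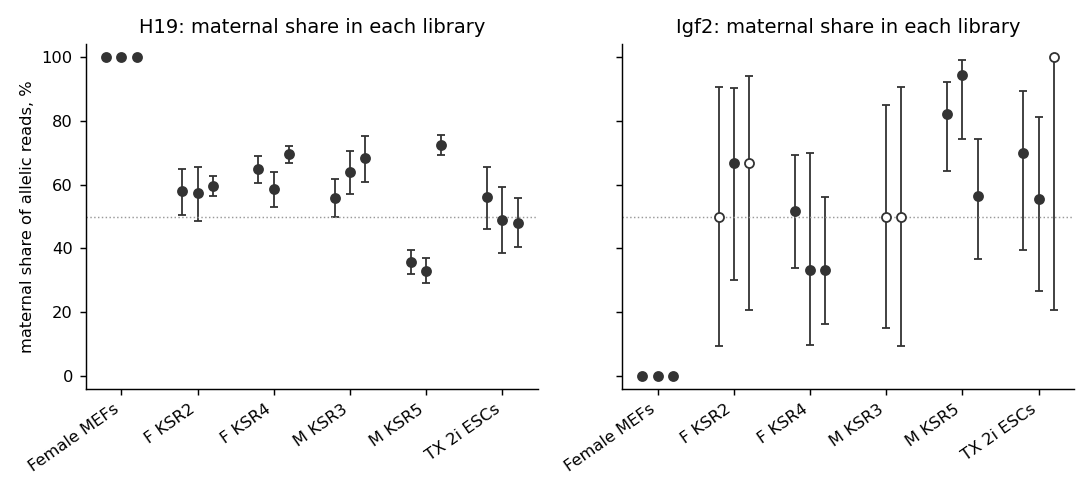
Maternal share of H19 and of Igf2 in each library, as percent of allelic reads on the y axis, with the groups on the x axis and 95% Wilson intervals as bars; the dotted line is an even balance, and open points are libraries with fewer than 5 allelic reads. H19 sits at 99.8 to 100% in MEFs and between 33.0 and 72.5% in the pluripotent libraries, with M KSR5 replicates 1 and 2 lowest.

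Igf2 left few allelic reads at its low level, and in MEFs 5.65 to 6.51% of its reads covered a strain difference. M KSR5 held 23, 17 and 13 maternal against 5, 1 and 10 paternal reads. Its maternal shares were 82.1% (64.4 to 92.1), 94.4% (74.2 to 99.0) and 56.5% (36.8 to 74.4), a mean of 77.7 ± 19.3%. Replicates 1 and 2, in which H19 was mostly paternal, were thus mostly maternal for Igf2, the reverse of MEFs for both genes, whereas the interval of replicate 3 held an even balance. F KSR4 held 14, 2 and 6 maternal against 13, 4 and 12 paternal reads, a mean share of 39.5 ± 10.7%. F KSR2 held 7 maternal reads of 11 over its 3 libraries (63.6%, 35.4 to 84.8), M KSR3 3 of 6 (18.8 to 81.2% at a share of 50%) and TX 2i ESCs 13 of 20 (65%, 43.3 to 81.9), and no departure from an even balance was detected in these groups. M KSR3 replicate 1 had 0 allelic reads of Igf2.

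The ratio of maternal to paternal reads was tested over 8812 genes with at least 5 allelic reads in every library (limma on the log2 ratio with 0.5 reads added to each allele). H19 lay below MEFs in all 5 groups, by -9.60 for F KSR2 (adjusted p = 4.84e-11), -9.22 for F KSR4 (4.86e-10), -9.32 for M KSR3 (1.72e-11), -10.23 for M KSR5 (4.01e-12) and -10.02 for TX 2i ESCs (9.37e-11), with an SE of 0.52. A lower ratio in all 5 groups was found for 1.10% of the genes tested. None of the 10 pairs of pluripotent groups passed for H19 (limma, 0 at an unadjusted p of 0.05 as well; the lowest was 0.0665 for F KSR4 minus M KSR5, adjusted p = 0.378), where 40.1% of genes passed in at least 1 pair. Without M KSR5 replicate 3, M KSR5 lay below F KSR2 (difference 1.41, adjusted p = 0.0356), F KSR4 (1.79, adjusted p = 0.0111) and M KSR3 (1.69, adjusted p = 0.0121). The mean of the 4 lines minus TX 2i ESCs was 0.42 ± 0.41 (95% interval -0.44 to 1.28, adjusted p = 0.582).

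Igf2 did not reach 5 allelic reads in every library and was left out of that fit. In a fit chosen after the data were seen, over 13527 genes with at least 5 allelic reads in at least 3 libraries, its ratio lay above MEFs in all 5 groups, by 13.29 for F KSR2, 12.20 for F KSR4, 12.76 for M KSR3, 14.76 for M KSR5 and 13.75 for TX 2i ESCs (SE 0.71, adjusted p from 1.42e-11 to 3.92e-09), and a higher ratio in all 5 groups was found for 2.28% of genes. The sizes depend on the 0.5 reads added, since the maternal allele held 1 read in MEFs and the pluripotent libraries held few. In M KSR3, with 0, 4 and 2 allelic reads, the balance of replicate 1 is set by the added reads alone, and its value is no measurement of a balance. Between pluripotent groups, F KSR4 minus M KSR5 was -2.56 ± 0.71 (adjusted p = 0.0426), the opposite direction to H19 in the same pair, and the other 9 pairs did not pass. That call was lost without any 1 of 11 libraries (adjusted p = 0.05 to 0.255), most of all without M KSR5 replicate 2 (-1.79), the others being MEF replicates 1 and 2, F KSR2 replicate 2, F KSR4 replicates 2 and 3, M KSR3 replicates 1, 2 and 3, M KSR5 replicate 1 and TX 2i ESCs replicate 1. Without M KSR5 replicate 3 the difference grew to -3.38 (adjusted p = 0.00406), and F KSR2 minus M KSR5 (-2.29, adjusted p = 0.0400) passed too. In exact permutation tests of the library shares against MEFs, 3 libraries against 3 cannot give a p below 0.1, which was the two-sided p of H19 in all 5 groups and of Igf2 in F KSR4 and M KSR5. For Igf2 in TX 2i ESCs, 2 libraries had at least 5 allelic reads, and both lay above every MEF library. The exact two-sided p was 0.2, the lowest that this test can give for 2 libraries against 3.

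The level of each allele was then set against that in MEFs on the scale of all reads of the library. The maternal H19 allele, the expressed one, was lower in all 5 groups, by -6.82 for F KSR2, -5.60 for F KSR4, -7.25 for M KSR3, -6.08 for M KSR5 and -8.35 for TX 2i ESCs (limma, SE 0.65, adjusted p no higher than 1.03e-06), as were 15.5% of 12658 genes for their maternal allele. The paternal Igf2 allele was lower by -11.34, -8.91, -11.92, -10.06 and -11.19 in the same order (SE 0.81), as were 16.8% of 12402 genes for their paternal allele. The paternal H19 allele, which is silent in MEFs, was higher than in MEFs by 2.78 (adjusted p = 0.00217), 3.62 (0.000263), 2.07 (0.0155), 4.16 (5.83e-05) and 1.67 (0.0470), with an SE of 0.69, and 19.6% of genes had a higher paternal allele in all 5 groups. From summed reads, 66 in MEFs against 518, 644, 235, 953 and 170, the paternal H19 rate was 8.55 (95% counting interval 6.61 to 11.2), 11.1 (8.61 to 14.5), 3.73 (2.83 to 4.98), 15.4 (12.0 to 20.1) and 2.77 (2.07 to 3.74) times that of MEFs. Single libraries moved these rates (each left out in turn, chosen after the data were seen): without MEF replicate 1, which held 42 of the 66 reads, they were 16.5, 21.4, 7.18, 29.6 and 5.33 in the same order, and without F KSR2 replicate 3, which held 391 of the 518 reads of its line, the rate of F KSR2 was 3.09. The M KSR3 call was lost without MEF replicate 2 (1.55, adjusted p = 0.0802) or M KSR3 replicate 1 (1.68, adjusted p = 0.0731). The TX 2i ESC call was lost without any 1 of 12 of the 18 libraries (adjusted p = 0.05 to 0.199), and kept only without MEF replicate 1, F KSR2 replicate 2 or 3, F KSR4 replicate 2 or 3 or M KSR3 replicate 1.

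**Figure D3:**
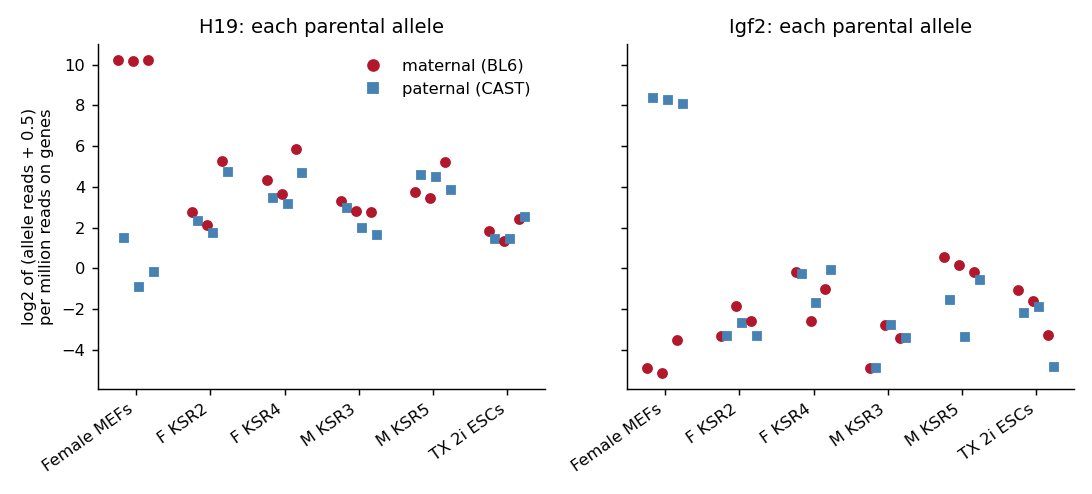
Level of the maternal and the paternal allele of H19 and Igf2 in each library, as log2 of allele RPM with 0.5 reads added (y axis), by group (x axis). In MEFs the alleles of each gene are far apart and in opposite order for the 2 genes, and in the pluripotent groups the alleles of 1 gene lie closer together, with the maternal Igf2 allele above the paternal one in M KSR5 replicates 1 and 2.

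The maternal Igf2 allele was higher than in MEFs in 4 of 5 groups, by 1.95 in F KSR2 (adjusted p = 0.0339), 3.29 in F KSR4 (0.00129), 4.71 for M KSR5 (4.02e-05) and 2.56 for TX 2i ESCs (0.00777), with 0.84 for M KSR3 (0.351) and an SE of 0.76. Of 12658 genes, 29.7% had a higher maternal allele in at least 4 groups. The reads behind these values were 7 and 22 in F KSR2 and F KSR4, 3 and 53 in M KSR3 and M KSR5 and 13 in TX 2i ESCs, against 1 in MEFs. The rate relative to that 1 read was 7.63 (0.980 to 344), 25.0 (4.05 to 1033), 3.14 (0.252 to 165), 56.5 (9.71 to 2273) and 14 (2.1 to 594) times, and the intervals of F KSR2 and M KSR3 held 1. The F KSR2 call was lost without MEF replicate 1 or 2 or F KSR2 replicate 2 or 3 (adjusted p = 0.0667 to 0.144). Relative to the paternal allele in MEFs, at 4622 to 5543 reads, even the 53 maternal reads of M KSR5 were few.

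Whether the alleles move together was asked over the 15 pluripotent libraries, with 7 relations and permutation p-values adjusted over them. The 3 libraries of a line are not independent, so the p-values are too small. The total levels of H19 and Igf2 had a Pearson r of 0.644 (permutation p = 0.0114, adjusted 0.0266) and a Spearman rho of 0.579 (permutation p = 0.0264, adjusted 0.0616), and r was 0.645 without the 2 libraries farthest from the median of H19. Without M KSR5 replicate 3, r was 0.603 (adjusted permutation p = 0.0554), and with each library centred on its group it was 0.631 (exact p over reorderings within groups 0.0948). In the 12 KSR-iPSC libraries, r was 0.820 (adjusted permutation p = 0.00920).

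With 0.5 reads added to each allele, the coefficients were higher between the 2 alleles of 1 gene than between alleles of different genes. The maternal and paternal H19 levels had an r of 0.857 (permutation p = 1e-04, adjusted 0.000700) and a rho of 0.925 (permutation p = 2.0e-05), with r = 0.811 without the 2 farthest libraries. The maternal and paternal Igf2 levels had an r of 0.718 (permutation p = 0.00268, adjusted 0.00938) and a rho of 0.700 (permutation p = 0.00461), with r = 0.640 without the 2 farthest. These relations kept their sign when centred on the groups (0.780 and 0.708), with adjusted permutation p = 0.0968 for both. Across genes, r was 0.466 for maternal H19 with paternal Igf2, the pair of alleles active in MEFs, and 0.447 for paternal H19 with maternal Igf2, the silent pair, both at an adjusted permutation p of 0.132. In the 12 KSR-iPSC libraries these 2 relations had an r of 0.599 and 0.592 (adjusted permutation p = 0.0639 for both) and a rho of 0.622 each (adjusted permutation p = 0.0475), the latter past the threshold. Over all 15 libraries r was 0.290 for both maternal alleles, which lie on 1 chromosome, and 0.297 for both paternal alleles, with adjusted permutation p = 0.296 each. Centred on the groups, 3 of the 4 relations between genes changed sign, with r at 0.082 for maternal H19 with paternal Igf2, -0.234 for paternal H19 with maternal Igf2, -0.126 for both maternal and -0.349 for both paternal alleles, none past the threshold. The order of the coefficients depends on the value added for Igf2, whose alleles had few reads, with 0 of both in M KSR3 replicate 1. With 1 added before the logarithm, r was 0.849 for the alleles of H19 but 0.536 for those of Igf2. It was then 0.617 for maternal H19 with paternal Igf2, with a rho of 0.458 against 0.695 for the Igf2 alleles. The differences between these coefficients were not tested.

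For the shares, 9 pluripotent libraries held at least 5 allelic reads of Igf2. M KSR5 replicates 1 and 2 lay apart from the other 7 in both genes, and no coefficient was computed over all 9. In the other 7, H19 shares ran from 48.8 to 72.5% and Igf2 shares from 33.3 to 70.0%, with r = -0.343 (exact permutation p = 0.437), rho = -0.396 (exact permutation p = 0.378) and r = -0.220 without the 2 farthest libraries. These 7 include M KSR5 replicate 3, and their Igf2 shares rest on 6 to 27 reads each. No relation between the balance of the 2 genes was detected among them.

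**Figure D4:**
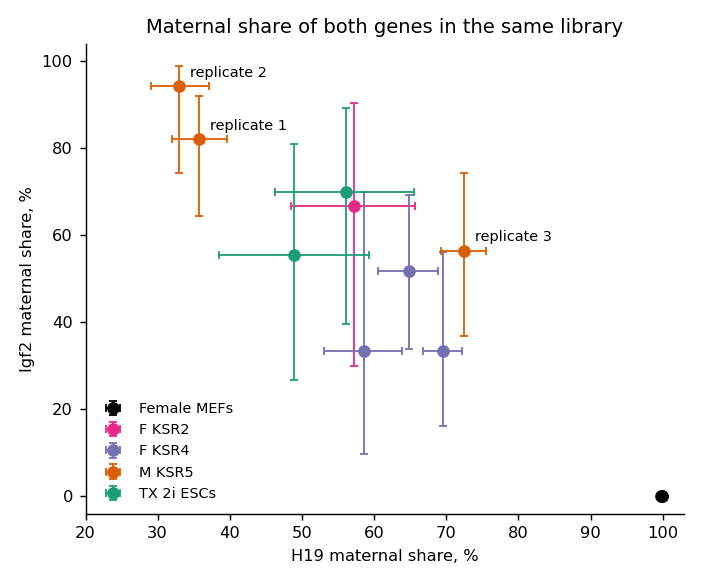
Maternal share of H19 (x axis, percent) against maternal share of Igf2 (y axis, percent) for libraries with at least 5 allelic reads of both genes, with 95% Wilson intervals as bars. MEFs lie at high H19 and 0% Igf2, M KSR5 replicates 1 and 2 at 33.0 to 35.7% H19 and 82.1 to 94.4% Igf2, and the other pluripotent libraries near the centre with wide Igf2 intervals.

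Most neighbours that could be tested fell with the pair. Of 16 other genes of the table within 300 kb, 7 were tested, 5 were lower than in MEFs in all 5 groups, as were 20.5% of all genes, and 0 were higher, with a median of the differences of -5.14 to -2.54 over the groups beside 0.08 to 0.30 for all genes. The 5 were 6330512M04Rik, the lysosomal protease Ctsd, Syt8, Lsp1 and Igf2as, of which 6330512M04Rik (17, 92 and 64 reads in MEFs) and Syt8 (20, 40 and 45) passed the filter on low values only through the MEFs, and the count was 3 when any 1 MEF library was left out. Without F KSR4 replicate 1, 1 neighbour was higher in all 5 groups. 6 of the 16 neighbours had 0 reads in every library. Ctsd differed from MEFs by -2.43 to -1.44 on the log2 scale, and its mean maternal share stayed between 43.2 and 51.2%, with 51.2 ± 1.79% in MEFs. Mrpl23, a mitochondrial ribosomal protein next to H19, had a share of 50.7 ± 1.76% in MEFs and means of 35.8 to 42.2% in the pluripotent groups. The spread was wide in F KSR4 (41.1 ± 14.2%, 29.1 to 56.8) and TX 2i ESCs (35.8 ± 10.7%, 23.6 to 43.7). In F KSR4 the shares rest on 37 to 117 allelic reads per library. The level of Mrpl23 rose in 3 groups. Igf2as, which lies antisense to Igf2 at chr7:142659693-142670356, held 211, 343 and 379 reads in MEFs and differed from MEFs by -6.51 to -3.98 in the pluripotent groups. All 36, 64 and 58 of its allelic reads in MEFs were paternal, as for Igf2, which allows a maternal share of up to 8.33, 4.69 and 5.17%. One of its exons overlaps an exon of Igf2 on the other strand, and the split of reads there is uncertain.

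**Figure D5:**
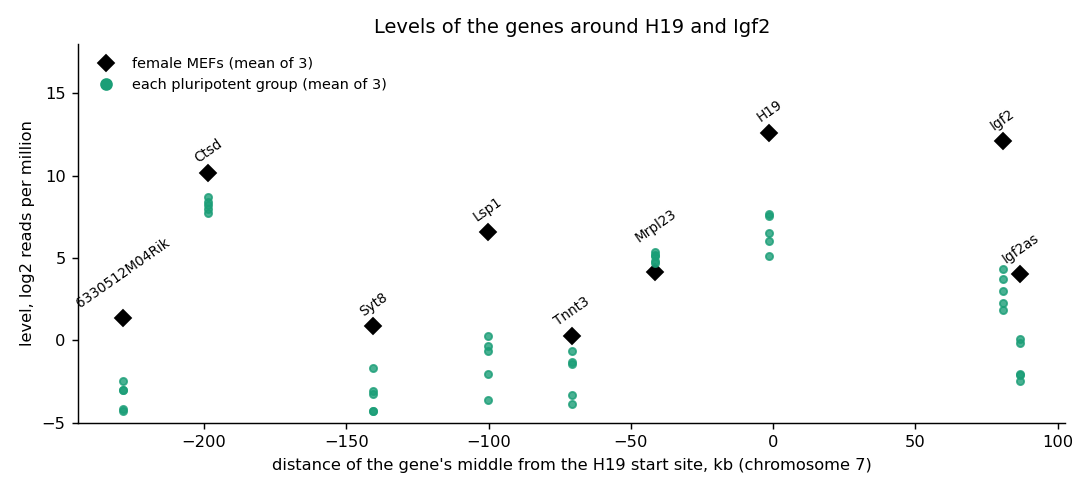
Mean deposited log2 level (y axis) of H19, Igf2 and the 7 tested neighbours, by distance of the middle of the gene from the H19 start in kb along chromosome 7 (x axis); diamonds are MEFs and circles the 5 pluripotent groups (n = 3 each). H19 and Igf2 are the highest genes of the region in MEFs at 12.62 and 12.13, above Ctsd at 10.15, and Igf2 lies below Ctsd and Mrpl23 in every pluripotent group.

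The IGF pathway was described from lists of its parts. Of the 7 ligands and receptors, 5 were tested, and Igf1, Igf2, Igf1r and Igf2r were lower than in MEFs in all 5 groups, as were 20.5% of all genes, with a median difference over the list of -2.98 to -2.23. Igf1 exceeded 1 RPM in 2 pluripotent libraries and passed the filter only with the MEFs. Ins1 and Ins2, which encode insulin, had 0 reads. Igf1r, the receptor that carries the growth signal of Igf2, fell from 5.84 ± 0.07 to means of 2.85 to 3.60, a difference of -2.98 to -2.23. Igf2r, which binds Igf2 and sends it to the lysosome, is itself imprinted and maternally expressed. It fell from 8.89 ± 0.24 to means of 6.34 to 6.85, a difference of -2.54 to -2.04. The insulin receptor Insr differed from MEFs by -0.80 to 0.37 and passed in no group (lowest adjusted p 0.091, limma).

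Of the IGF binding proteins, secreted carriers that hold IGFs in the extracellular space, 6 of 7 were tested, 5 were lower in all 5 groups (20.5% of all genes) and Igfbp2 was higher, by 1.13 to 2.42. Of the 5, Igfbp6 exceeded 1 RPM in 1 pluripotent library and passed the filter only with the MEFs, where it is high. Igfbp7 differed from MEFs by -9.81 to -8.44 and Igfbp5 by -9.43 to -6.75, and the list had a median difference of -5.97 to -4.54. Of 8 substrates and kinases downstream of the receptors, 6 were lower in all 5 groups and Irs4 was higher, but Irs4 was listed near 1 read in MEFs and its call was lost with 1 added before the logarithm. The median of this list was -1.87 to -1.41. Irs1, an adaptor of Igf1r, differed from MEFs by -6.97 to -5.59, and Grb10, an imprinted inhibitor of these receptors, by -6.80 to -4.18. The differences were -3.26 to -2.53 for the kinase Akt1 and -0.82 to -0.51 for Akt2. Of the Igf2 mRNA binding proteins, which bind and stabilise transcripts such as Igf2, 1 of 3 was higher in all 5 groups, Igf2bp1, by 2.72 to 3.15. Of all genes, 26.6% were higher in all 5 groups.

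The genes of the insulator proteins were mostly higher in the pluripotent cells. Of 7 genes, 6 were tested, 4 were higher in all 5 groups, beside 26.6% of all genes, and 0 were lower in any. The median difference of the list was 0.96 to 1.31 over the groups, beside 0.08 to 0.30 for all genes. Ctcf was higher by 1.40 to 1.55 (limma, adjusted p from 0.00018 to 0.0005), and the cohesin subunits Rad21, Smc1a and Smc3 by 0.87 to 1.58, 0.50 to 1.58 and 1.33 to 1.64. For Smc1a the values were 0.56 and 0.50 in the male lines and 1.22 to 1.58 in the other groups. Female lines exceeded male lines in Smc1a (0.76, limma, adjusted p = 0.00764) and Stag2 (0.75, adjusted p = 0.0302), where 2.87% of all genes differed. Sex and embryo cannot be told apart there. Ctcf ranged from 7.63 to 7.79 over the means of the 5 pluripotent groups. Ctcfl, the germline paralogue of Ctcf, was too low to be tested.

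Of 15 genes of the imprinted gene network, imprinted or linked genes that are known to be expressed together in the embryo (Grb10 and Igf2r are also in the lists above), 9 were lower in all 5 groups, against 20.5% of all genes, and 1, the amino acid transporter Slc38a4, was higher. The 9 include Dcn, which exceeded 1 RPM in 2 pluripotent libraries and passed the filter only with the MEFs. The list had a median difference of -2.71 to -1.63. The differences were -5.93 to -4.96 for Dlk1, -3.19 to -2.47 for Gnas, -2.43 to -1.54 for Ndn and -5.35 to -1.39 for Cdkn1c, a cell cycle inhibitor. Cdkn1c was 2.69 higher in KSR-iPSCs than in TX 2i ESCs, the direction of H19. Plagl1, an imprinted transcription factor known to act on H19 and Igf2, was at 7.03 ± 0.21 in MEFs. It was at 3.89 ± 0.95 for F KSR2, 4.28 ± 0.23 for F KSR4, 4.21 ± 0.45 for M KSR3 and 2.42 ± 1.53 for M KSR5. In TX 2i ESCs it was at 7.82 ± 0.17 and did not pass against MEFs (0.80, limma, adjusted p = 0.2). The mean of KSR-iPSCs lay below TX 2i ESCs by -4.13 ± 0.43 (adjusted p = 4.99e-06), opposite in direction to H19. M KSR5, the line with the lowest mean Plagl1, had the highest mean levels of H19 and Igf2 among the pluripotent groups. A link between Plagl1 and the levels of the pair was not tested.

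The genes whose levels were most like those of H19 over the 15 pluripotent libraries, among 13829, were Krt18 (r = 0.905), Gsn (0.897), Krt7 (0.894), Krt8 (0.888) and Tpm2 (0.872), which encode simple epithelial keratins, the actin-severing protein gelsolin and a tropomyosin, with rho from 0.825 to 0.868. Krt7, also 1 of the trophoblast markers, was at 0.50, 2.30 and 10.9 RPM in F KSR2, at 2.92, 5.25 and 20.4 in F KSR4 and at 7.46, 6.95 and 12.0 in M KSR5. In these 3 lines the library highest in Krt7 was the one highest in H19. It was not in M KSR3, with Krt7 at 1.22, 1.33 and 1.28, nor in TX 2i ESCs, at 0.280, 0.588 and 0.573, and Krt7 was named for its likeness to H19 over these same libraries. The 7 trophoblast markers summed to 10.9 to 74.4 RPM in the pluripotent libraries and to 11 to 22.7 in MEFs. Their sum was 20, 20 and 74 in F KSR2, highest in replicate 3 as H19 was, but 58, 12 and 42 in F KSR4, where H19 was highest in replicate 3, and the part of differentiating cells in the H19 level was not tested. Igf2 ranked 348th by likeness to H19. The genes most like Igf2 were Bnipl (r = 0.869), Mtch1 (0.845), Cbr3 (0.834), Cops3 (0.824) and Nanos3 (0.823), and H19 ranked 177th. These coefficients describe libraries of 5 lines that share lines and depth, and the 2 sets of 5 genes had no gene in common.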

How the data were processed

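RNA-seq of 18 libraries in 6 groups of 3 was analysed. The 82 methylation samples of the series were not analysed here. Per the labels and the study's methods, RNA with a RIN above 9 was made into stranded polyA libraries. The submitters' processing notes name Trim Galore 0.6.1, HISAT2 2.1.0 and GRCm38. Reads were quantified in SeqMonk and given to BL6 or CAST where they covered a strain difference, and reads with conflicting calls were left out. The authors deposited log2 RPM values (reads of a gene for every 1000000 reads) for all, unassigned, BL6 and CAST reads of each gene. The methods call them log2 RPKM, but the values carry no length correction. A gene with 0 reads is held at the value of 0.9 reads. Whole reads were recovered from the steps between low values, for at least 99.97% of values within 0.05 reads, and used for shares, allele levels and ratios.

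Levels were tested with limma 3.58.1 (R 4.3.3) on the deposited log2 values, with a trend, a mean per group and Benjamini-Hochberg adjustment over genes that exceeded 0 on the log2 scale in 3 or more libraries, at a threshold of 0.05. Allele levels used log2 of allele reads plus 0.5 for every 1000000 reads on genes (at least 5 reads in at least 3 libraries), and ratios log2 of maternal over paternal reads plus 0.5 each (at least 5 allelic reads in every library). Female and male lines were compared in a fit of the 12 KSR-iPSC libraries. Shares needed 5 allelic reads, with 95% Wilson intervals and limits of 3 reads for a count of 0. Permutation tests (scipy 1.17.1) were exact or used 100000 resamples. Scripts were tested on simulated data. Named genes were the pair, all genes within 300 kb, fixed lists of IGF ligands and receptors, binding proteins, adaptors, Igf2 mRNA binding proteins, insulator proteins and an imprinted gene network, and the 5 genes most like each member. The members and lists were chosen with earlier results of these data known. The alternatives tried were other scalings, pseudocounts and filters, the per-allele values as deposited, 20 allelic reads, the replicate block and leaving out each library in turn. Replicates of a group differed by 3.21 to 114 times the sampling noise, so none was counted as a duplicate. The pairs of F KSR4 libraries were at 78.9 to 114, those of every other group at 36.3 or less, and M KSR3 replicates 2 and 3 at 3.21. The limma fits used 1 spread for all groups. Replicate numbers are not stated to mark a shared culture or day.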

Additional observations from a re-analysis of the deposited data

Results flagged for a closer look

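In the level of Igf2, 3 pairs of iPSC lines differed by limma's test of the difference itself. M KSR3 lay below M KSR5 by -2.52 on the log2 scale and F KSR2 below M KSR5 by -2.09, while F KSR4 lay above M KSR3 by 1.92. In the level of H19, F KSR4 was above TX 2i ESCs by 2.43 and M KSR5 by 2.55. Each comes from lines of 1 clone in 3 libraries, and 4 of the 5 calls are lost when certain single libraries are left out; M KSR5 minus TX 2i ESCs kept its side of the threshold without any 1 library.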

How the results depend on the processing

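Levels, ratios and allele levels were refitted under the alternatives that apply to each (median scaling, limma-voom, line as a random effect and the choice of libraries in the fit for levels, 20 allelic reads for ratios), and no value changed sign with a call. The 10 level values against MEFs kept direction and side of the threshold in 240 of 240 alternatives, and the 10 ratio values against MEFs in 205 of 205. Scaling by the median over genes moved the libraries by -0.23 to 0.12 on the log2 scale. Among all 34 level values, 768 of 796 did. Of the 20 allele levels, 418 of 440 alternatives kept theirs, and 22 calls were lost, at 3 values.

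The same replicate numbers do not pair the samples (45 correlations of deviations, -0.20 to 0.38, median 0.04, with every one over 0.1 in 1 of 15 pairs of groups). With the replicate number as a block, 1 of 70 member values changed its call, H19 level F KSR4 minus M KSR3 (1.50). Without the filter on low values, Igf2 level F KSR2 minus M KSR5 (-2.09) was no longer called. The maternal Igf2 allele in F KSR2 was no longer above MEFs with 1 read added (1.42), the per-allele values as deposited (1.19) or no filter (1.95), nor was the paternal H19 allele in TX 2i ESCs without the filter (1.67). From the per-allele values as deposited, which are scaled per allele, H19 was 52.0% maternal for F KSR2, 58.0% for F KSR4 and 54.3% for M KSR3. With at least 20 allelic reads, the Igf2 share of F KSR4 rests on 1 library at 51.9%. Centred on the groups, r was 0.63 for total H19 and Igf2, 0.78 for the alleles of H19 and 0.71 for those of Igf2, none past the threshold. With 1 added before the logarithm, r of maternal H19 with paternal Igf2 was 0.617 and passed, and that of the Igf2 alleles was 0.536 and did not. Genes that differed in level between female and male lines numbered 390 of 13609, 138 with line as a random effect and 1523 of 14632 with all 18 libraries in the fit. Other causes of these changes were not tested.

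Leaving out each library in turn gave these ranges where a call changed or a count moved. For H19 levels, KSR-iPSCs minus TX 2i ESCs ran from 1.55 to 2.13, F KSR2 minus F KSR4 from -2.03 to -0.42, F KSR2 minus M KSR5 from -2.16 to -0.55, F KSR4 minus M KSR3 from 0.92 to 1.97, F KSR4 minus TX 2i ESCs from 1.85 to 2.90 and M KSR3 minus M KSR5 from -1.88 to -1.43. For Igf2 levels, F KSR2 minus F KSR4 ran from -2.33 to -0.90, F KSR2 minus M KSR5 from -2.53 to -1.82, F KSR4 minus M KSR3 from 1.33 to 2.76, F KSR4 minus TX 2i ESCs from 0.16 to 1.59, M KSR3 minus M KSR5 from -2.85 to -2.30, M KSR3 minus TX 2i ESCs from -1.50 to -0.94 and M KSR5 minus TX 2i ESCs from 1.20 to 1.46. Against MEFs, the maternal Igf2 allele of F KSR2 ran from 1.59 to 2.45, the paternal H19 allele of M KSR3 from 1.55 to 2.75 and that of TX 2i ESCs from 1.14 to 2.34. For the H19 ratio against M KSR5, F KSR2 ran from 0.20 to 1.41, F KSR4 from 0.58 to 1.79 and M KSR3 from 0.48 to 1.69. For the Igf2 ratio against M KSR5, F KSR2 ran from -2.29 to -0.70, F KSR4 from -3.38 to -1.79 and M KSR3 from -2.82 to -1.23. Total H19 with Igf2 had r = 0.603 without M KSR5 replicate 3. Where 1 library was left out, the other groups lent their spread to the pair that remained.

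Depth limits the allelic balance of Igf2: 6 to 69 allelic reads per pluripotent group give intervals that span an even balance in 4 of 5 groups. The number of libraries limits the exact tests of shares, and no reciprocal cross was analysed here.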

Other observations

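Some list genes other than the pair were higher in KSR-iPSCs than in TX 2i ESCs by more than 2 log2 units (limma, mean of 4 lines). They were the F-actin binding protein Lsp1 (2.96) and the muscle troponin Tnnt3 (2.20) next to H19, Dcn (2.25), the growth factor Igf1 (2.08) and Cdkn1c, given above. In TX 2i ESCs Lsp1 held 3, 0 and 1 reads, Tnnt3 0, 2 and 0, and Igf1 a mean level of -4.22, so that these sizes depend on the value held for 0 reads. Dcn, 1 of the 15 fibroblast markers, had 0 reads in all 3 TX 2i ESC libraries, so that its size depends on that value as well. It had 0 to 1.62 RPM in KSR-iPSCs. The part of residual fibroblasts or feeder cells in these differences was not tested. The yolk-sac endoderm markers summed to 402 to 426 RPM in M KSR3, against 49.4 to 180 in the other pluripotent groups and 129 to 184 in MEFs. Lama1 (220 to 260) and Dab2 (75.2 to 90.2) made up most of the M KSR3 sum, and Afp and Ttr were at 0. Gata4 (27.3 to 36.3) and Gata6 (38.1 to 46.8) were also higher in M KSR3 than in every other library (at most 11.6 and 13.2). Sox7, Sox17 and Foxa2 overlapped with other libraries. In MEFs Dab2 stood at 114 to 160. M KSR3 was also the line with the lowest mean Igf2, and a link was not tested.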
